A study of Mus musculus with 12 samples.

Results

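The 26 genes described here make cholesterol, control its making through the SREBP transcription factors, or take it up. They were taken as a listed set of mouse symbols, each found once among the 55421 gene identifiers of a table of RNA sequencing counts. The rule that lists them uses no measured value, but the set was chosen with earlier results of these data known. Of the 26, 8 encode enzymes of the mevalonate pathway, 11 encode enzymes from squalene to cholesterol, 5 encode SREBP proteins or the proteins that escort and hold them, and 2 serve sterol uptake and transport. All 26 had enough counts to be tested.

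RNA came from mouse small intestine, in 12 libraries of 3 groups with 4 libraries each. The Apc Eif3h group carried VilCreER with Apc fl/fl and Eif3h fl/fl and is labelled day 4, with 4 males. The Apc group carried VilCreER with Apc fl/fl and is labelled day 4, with 3 males and 1 female. The WT group is labelled Wild Type and day 7, with 3 males and 1 female. VilCreER is a Cre recombinase that tamoxifen activates. The villin promoter drives it in the epithelium of the gut, so cells outside the epithelium keep their floxed alleles. Per the treatment text, the mice received 2 injections of tamoxifen at 80 mg/kg 24 hours apart. That text gives harvest after 7 days for all groups, which differs from the day 4 label, so genotype and day cannot be told apart in comparisons with WT. No label states whether each library came from its own mouse, and p-values measure the spread between these libraries. The Apc protein helps to destroy beta-catenin, the effector of Wnt signals, and the Eif3h protein is part of eIF3, which loads ribosomes onto messenger RNA. The series addresses how intestinal expression depends on Apc and Eif3h.

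Cholesterol is built from acetyl-CoA by way of mevalonate, isoprenoid diphosphates, squalene and lanosterol. When membranes of the endoplasmic reticulum hold little sterol, Scap carries the SREBP precursors to the Golgi, where they are cut to give transcription factors. When sterol is plentiful, the Insig proteins hold Scap back. SREBP2, the product of Srebf2, acts mainly on genes of sterol synthesis and uptake, and SREBP1, the product of Srebf1, mainly on genes of fatty acid synthesis. In the small intestine, enterocytes of the villus absorb dietary sterol through Npc1l1.

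Start regions of 5 members are shown. Idi1, Lss, Cyp51 and Npc1l1 are among the members whose levels passed the test in at least 1 comparison, and Hmgcs1, which passed in none, holds the longer sterol element searched. Each is the RefSeq window of 250 bases before to 50 bases after the start of the gene (GRCm38.p6), written 5′ to 3′ on the strand of the gene. RefSeq starts can differ from the GENCODE gene ends printed elsewhere here. The window of Npc1l1 lies wholly upstream of its GENCODE start. Capitals mark a sterol element searched as TCACNCCAC, its core CACCCCAC or a CCAAT box, on either strand. Hmgcs1 makes HMG-CoA, Idi1 isomerises isopentenyl diphosphate, Lss closes the rings of lanosterol, Cyp51 demethylates lanosterol and Npc1l1 takes up sterol.
Hmgcs1 (chr13:119690101-119690400, plus strand): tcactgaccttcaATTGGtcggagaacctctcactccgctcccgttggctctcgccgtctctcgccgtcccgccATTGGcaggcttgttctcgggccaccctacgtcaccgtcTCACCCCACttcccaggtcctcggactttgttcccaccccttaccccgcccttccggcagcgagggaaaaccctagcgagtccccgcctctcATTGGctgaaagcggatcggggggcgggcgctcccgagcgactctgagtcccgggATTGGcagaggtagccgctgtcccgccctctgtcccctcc
Idi1 (chr13:8885356-8885655, plus strand): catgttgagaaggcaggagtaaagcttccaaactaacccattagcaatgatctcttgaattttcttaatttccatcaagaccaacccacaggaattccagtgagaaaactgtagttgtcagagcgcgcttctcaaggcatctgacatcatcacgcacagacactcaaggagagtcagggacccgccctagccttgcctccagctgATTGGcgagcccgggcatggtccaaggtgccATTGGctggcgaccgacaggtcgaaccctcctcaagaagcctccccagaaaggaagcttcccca
Lss (chr10:76531355-76531654, plus strand): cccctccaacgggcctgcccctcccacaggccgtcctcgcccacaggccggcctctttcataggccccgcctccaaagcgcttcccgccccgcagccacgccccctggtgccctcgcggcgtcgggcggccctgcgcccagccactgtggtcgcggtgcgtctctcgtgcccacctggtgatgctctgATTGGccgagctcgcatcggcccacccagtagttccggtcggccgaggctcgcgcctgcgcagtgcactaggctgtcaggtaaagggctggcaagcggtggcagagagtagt
Cyp51 (chr5:4104648-4104947, minus strand): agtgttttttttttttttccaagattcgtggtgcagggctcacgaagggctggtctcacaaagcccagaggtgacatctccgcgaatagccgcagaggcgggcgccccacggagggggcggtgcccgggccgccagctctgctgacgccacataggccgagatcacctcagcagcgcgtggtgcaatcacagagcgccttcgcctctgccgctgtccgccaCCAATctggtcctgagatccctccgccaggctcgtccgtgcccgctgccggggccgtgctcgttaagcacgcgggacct
Npc1l1 (chr11:6230196-6230495, minus strand): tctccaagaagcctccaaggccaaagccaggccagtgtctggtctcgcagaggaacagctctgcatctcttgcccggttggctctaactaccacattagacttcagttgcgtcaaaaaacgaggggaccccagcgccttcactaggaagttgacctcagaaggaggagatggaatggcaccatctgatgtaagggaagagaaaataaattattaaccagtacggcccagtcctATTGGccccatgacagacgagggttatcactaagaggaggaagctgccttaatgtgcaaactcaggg

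The table of start regions held 30 windows for 22 of the 26 members and 32851 windows in all. Fdft1, Fdps, Sqle and Stard4 had no entry. The letters TCACNCCAC, searched on both strands as were all motifs, stood in 1 of 30 member windows (3.33%), that of Hmgcs1 with its first base at -137, and in 1.24% of all windows. The shorter CACCCCAC, which overlaps it, stood in 2 member windows (6.67%), those of Acat2 and Hmgcs1, and in 2.87% of all windows. CCAAT stood in 21 member windows (70%), which belong to 20 genes, and in 37.4% of all windows. The GC box GGGCGG stood in 23 member windows (76.7%) of 19 genes, against 35.7% of all windows. The E-box CACGTG stood in 6 member windows (20%) of Dhcr7, Hsd17b7, Insig1, Sc5d and Scap, against 7.15% of all windows. The windows of all genes were not matched to those of the members in base composition or expression, and some members have more than 1 window. A match describes letters in a window, and a window without one says only that these letters are not in it.

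Library totals were 14221414 to 21298301 counts in Apc Eif3h, 10483112 to 18621953 in Apc and 13915889 to 14589963 in WT. Eif3h was at 28.3, 43.1, 54.6 and 25.9 CPM in Apc Eif3h (CPM are counts scaled to library size with TMM factors), below every Apc library (158 to 175 CPM) and every WT library (126 to 142 CPM). Apc itself was at 105, 100.2, 92.8 and 121 CPM in Apc Eif3h, 106, 111, 116 and 123 CPM in Apc and 87.4, 98.3, 97.6 and 93.3 CPM in WT. It was higher in Apc than in WT (0.28, SE 0.0866, adjusted p = 0.0176), a call lost without WT replicate 1 (0.0526) or Apc replicate 4 (0.0577). The sources used here do not give the floxed exons, so counts over the whole gene do not check the deletion of Apc. Of 14 markers of crypt and cycling cells, 14 rose in Apc against WT (100%, against 27.7% of all genes). Their summed level was 2559 to 3188 CPM in Apc Eif3h, 3450 to 3911 in Apc and 827 to 1391 in WT. Of 21 markers of absorptive enterocytes, 16 fell in Apc against WT (76.2%, against 24.1% of all genes). In Apc Eif3h against WT 15 fell (71.4%, against 28.1%). Their summed levels were 24840 to 41010, 23600 to 35450 and 48500 to 66060 CPM in Apc Eif3h, Apc and WT. Apc Eif3h replicate 2 stood apart by B and plasma cell genes, which summed to 1557 CPM, against 309 to 449.5 CPM in the other 3 libraries of its group. Without it, 0 members were higher and 2 lower in Apc Eif3h against Apc, and 11 higher and 6 lower in Apc Eif3h against WT. In WT replicate 1 these genes summed to 2763 CPM, against 814 to 920 CPM in the other WT libraries. Without WT replicate 1, Apc against WT had 13 members higher and 6 lower. Fabp6, a marker of distal small intestine, was near 0 in every group (0.339, 0.227 and 0.132 CPM in Apc Eif3h, Apc and WT). All listed distal markers summed to 588 to 998 CPM in Apc Eif3h, 486 to 780 in Apc and 1064 to 1500 in WT. Markers of proximal small intestine summed to 4301 to 8943, 4182 to 7400 and 8993 to 11200 CPM in the same order. In Apc against WT, 2 of 8 proximal markers rose and 5 fell (25% and 62.5%, against 27.7% and 24.1% of all genes). Whether the groups held the same region was not tested.

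Across the members, 11 of the 19 synthesis enzymes rose and 2 fell in Apc against WT, 2 of the 5 SREBP control genes rose and 2 fell, and both genes of uptake and transport fell. In Apc against WT, 13 of the 26 members (50%) rose and 6 (23.1%) fell at an adjusted p below 0.05 (edgeR's quasi-likelihood test, adjusted by Benjamini and Hochberg's method over the whole table). Values in brackets after a comparison are its log2 fold change, the standard error (SE) of that and its adjusted p. Of all 17394 genes tested, 27.7% rose and 24.1% fell, so the share of members that fell was near that of all genes. The libraries of Apc and WT did not overlap for 18 members (69.2%), against 48.8% of all genes. The members' median log2 fold change was 0.34, beside -0.0099 over all genes. With library totals as the only scaling, the median over all genes moved to 0.22 and the members to 0.58. The difference was 0.36, against 0.35 with TMM. Under that scaling 18 members rose and 4 fell, and of all 17394 genes 6817 rose and 2393 fell.

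Few members passed in Apc Eif3h against Apc. Fdft1, Lss and Dhcr7 fell (3 of 26, 11.5%, against 2.78% of all genes), and 0 of 26 rose by edgeR, against 4.27% of all genes. At an unadjusted p below 0.05, 1 member was higher and 8 lower, beside 2190 higher and 1905 lower of all 17394 genes. DESeq2 called 0 members higher and 4 lower, beside 1059 and 696 of 34982 genes. The libraries of the 2 groups did not overlap for 6 members (23.1%), against 15.2% of all genes. The members' median was -0.19, beside -0.0019 over all genes, and their log2 fold changes ran from -0.47 to 0.37.

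Set against WT, Apc Eif3h had 12 members (46.2%) that rose and 7 (26.9%) that fell, against 29.8% and 28.1% of all genes, so the share that fell was again near that of all genes. Libraries did not overlap for 16 members (61.5%), against 47.7% of all genes. The median was 0.24, beside -0.029 over all genes, and with library totals only 0.44 beside 0.17. Under that scaling 14 members were higher and 6 lower, beside 6605 and 3175 of all 17394 genes. The comparisons share libraries, so their values are set side by side below and are not counted against each other.

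**Figure D1:**
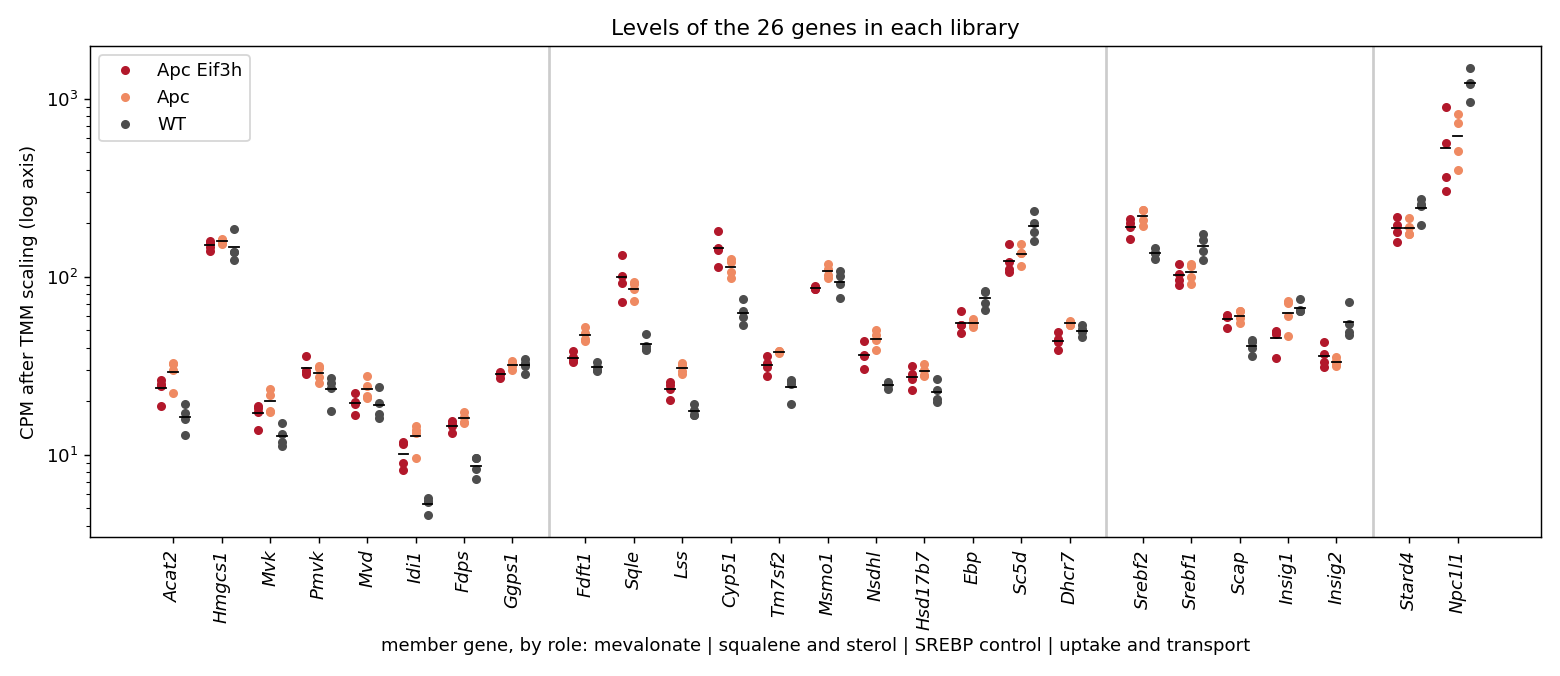
Level of each of the 26 members in each of the 12 libraries, in CPM on a log axis, with genes grouped by role and 1 point per library in Apc Eif3h, Apc and WT. Idi1, Sqle and Cyp51 have every Apc Eif3h and Apc point above every WT point, and Npc1l1 has the highest points of any member in each group.

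**Figure D2:**
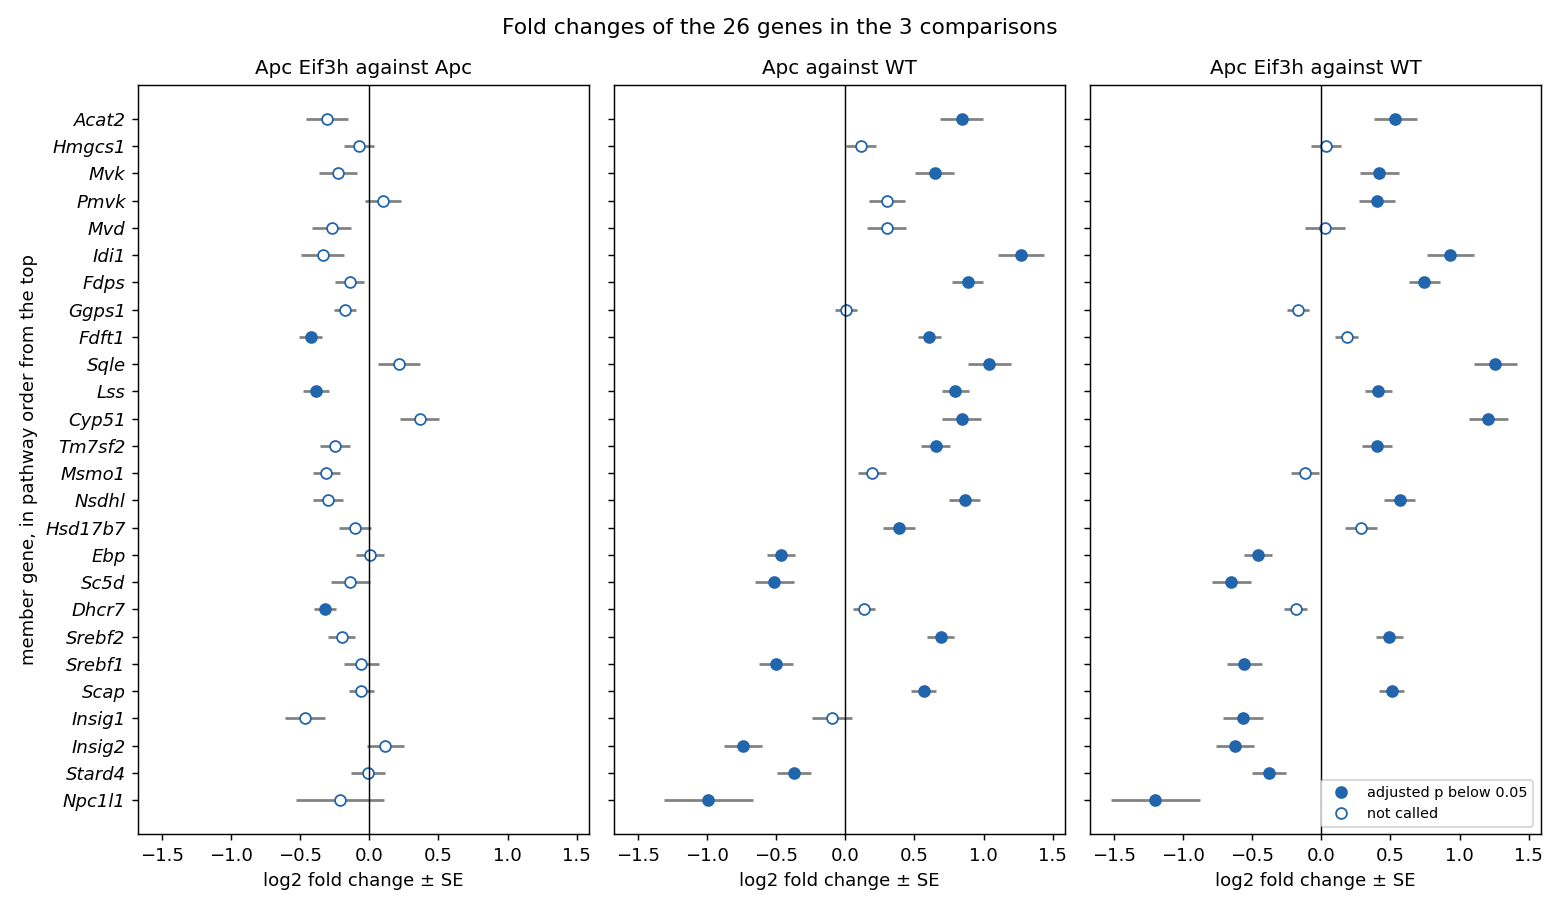
Log2 fold change of each member in Apc Eif3h against Apc, Apc against WT and Apc Eif3h against WT, 1 panel each, with bars of 1 standard error and filled points for an adjusted p below 0.05. Values run from -0.47 to 0.37 in Apc Eif3h against Apc and from -0.99 to 1.27 in Apc against WT.

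In the mevalonate pathway, 4 of 8 enzymes rose in Apc against WT (Acat2, Mvk, Idi1 and Fdps) and none fell. The share that rose was 50%, and of all genes 27.7% rose and 24.1% fell. None fell by DESeq2 either. At an unadjusted p below 0.05, Pmvk was added, giving 5 higher and 0 lower, beside 5281 and 4790 of all 17394 genes. Idi1 (ENSMUSG00000058258, chromosome 13, 8885501 to 8892451, plus strand) isomerises isopentenyl diphosphate and had the highest log2 fold change of the 26 members in this comparison. It was at 11.8, 8.23, 8.997 and 11.5 CPM in Apc Eif3h, 13.8, 9.67, 14.5 and 13.3 CPM in Apc and 5.50, 5.70, 5.41 and 4.61 CPM in WT. Every Apc Eif3h and Apc library was above every WT library, by 1.27 (SE 0.17, adjusted p = 8.89e-05) in log2 fold change for Apc against WT and 0.93 (SE 0.17, adjusted p = 0.000542) for Apc Eif3h against WT. Of the 36-base words of its exons, as long as a read, 26.5% recur in other genes, mainly the processed pseudogene Gm13502, which held 942 counts over the 12 libraries against 1848 for Idi1, so its level is uncertain. Fdps, the synthase of farnesyl diphosphate, was at 15.5, 14.6, 14.9 and 13.3 CPM in Apc Eif3h, 15.3, 15.2, 16.3 and 17.4 CPM in Apc and 7.36, 8.33, 9.56 and 9.56 CPM in WT. Both mutant groups lay above WT without overlap, and the log2 fold change of Apc against WT was 0.89 (SE 0.11, adjusted p = 6.19e-05). Of the words of Fdps, 27.6% recur in other genes, mainly Gm43738 on the same strand. That gene held 2 counts against 2547 for Fdps, and since reads of both may have been lost, the level of Fdps is uncertain. Acat2, which joins acetyl-CoA units in the cytosol, averaged 23.6 ± 3.27 CPM in Apc Eif3h, 29.2 ± 4.89 CPM in Apc and 16.3 ± 2.60 CPM in WT (SD, n = 4 each). It rose in Apc against WT (0.84, SE 0.16, adjusted p = 0.000815), but 42.3% of its words are shared with its close copy Acat3, which held 219 counts in all. Mvk, mevalonate kinase, averaged 17.1 ± 2.30 CPM in Apc Eif3h, 20 ± 2.93 CPM in Apc and 12.8 ± 1.70 CPM in WT and rose in Apc against WT (0.65, SE 0.14, adjusted p = 0.00237).

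The other 4 mevalonate enzymes did not pass in Apc against WT. With library totals only, Hmgcs1 (adjusted p = 0.0115), Mvd (0.00607) and Pmvk (0.00335) passed, where 6817 of all 17394 genes rose. Hmgcs1, the cytosolic synthase of HMG-CoA, is a classic target of SREBP2 and was at 140.2, 158, 147 and 156 CPM in Apc Eif3h, 153, 161, 155 and 164 CPM in Apc and 124, 138, 187 and 137 CPM in WT. The groups overlapped, with the highest value in WT replicate 3, and the log2 fold change of Apc against WT was 0.11 (SE 0.11, adjusted p = 0.407). Without WT replicate 3 it passed (adjusted p = 0.0172), as did Mvd (0.0192), the decarboxylase of mevalonate diphosphate, which averaged 19.6 ± 2.22 CPM in Apc Eif3h, 23.6 ± 3.09 CPM in Apc and 19.2 ± 3.63 CPM in WT. Pmvk, phosphomevalonate kinase, averaged 30.9 ± 3.32 CPM in Apc Eif3h, 28.8 ± 2.92 CPM in Apc and 23.4 ± 4.04 CPM in WT, with 0.30 (adjusted p = 0.0713) in Apc against WT and 0.40 (adjusted p = 0.0195) in Apc Eif3h against WT. Pmvk passed without WT replicate 4 in Apc against WT (0.0446) and lost its call in Apc Eif3h against WT without Apc Eif3h replicate 1 (0.0617). Ggps1, which makes the geranylgeranyl diphosphate used to prenylate proteins, averaged 28.4 ± 0.930 CPM in Apc Eif3h, 32.05 ± 1.58 CPM in Apc and 31.9 ± 2.66 CPM in WT, with 0.0063 (adjusted p = 0.951) in Apc against WT. In Apc Eif3h all 4 Ggps1 libraries were below all 4 Apc libraries, but the log2 fold change of Apc Eif3h against Apc did not pass (-0.17, adjusted p = 0.202).

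From squalene to cholesterol, 7 of 11 enzymes rose in Apc against WT (Fdft1, Sqle, Lss, Cyp51, Tm7sf2, Nsdhl and Hsd17b7) and 2 fell (Ebp and Sc5d). The shares were 63.6% and 18.2%, against 27.7% and 24.1% of all genes, so the share that fell was below that of all genes. Those that rose act from the making of squalene to the removal of methyl groups from lanosterol, and Ebp and Sc5d act later, on the double bonds of the rings. Sqle (ENSMUSG00000022351, chromosome 15, 59315077 to 59331192, plus strand), squalene epoxidase, was at 133, 92.4, 72.5 and 102 CPM in Apc Eif3h, 93.3, 73.2, 85.3 and 91.6 CPM in Apc and 38.7, 39.3, 47.8 and 41.03 CPM in WT. Every library of both mutant groups was above WT, and Apc Eif3h replicate 1 was the highest of all. The log2 fold change was 1.04 (SE 0.16, adjusted p = 0.000204) in Apc against WT and 1.26 (SE 0.16, adjusted p = 3.68e-05) in Apc Eif3h against WT. Cyp51 (ENSMUSG00000001467, chromosome 5, 4081145 to 4104746, minus strand), lanosterol demethylase, was at 182, 145, 113 and 142 CPM in Apc Eif3h, 121, 107, 98.5 and 126 CPM in Apc and 59.4, 53.4, 74.8 and 64.5 CPM in WT. It too separated both mutant groups from WT, with 0.84 (SE 0.14, adjusted p = 0.000456) in Apc against WT and 1.21 (SE 0.14, adjusted p = 2.6e-05) in Apc Eif3h against WT. Nsdhl, an X-linked sterol dehydrogenase of the demethylation steps, averaged 36.6 ± 5.59 CPM in Apc Eif3h, 45.04 ± 4.93 CPM in Apc and 24.7 ± 0.931 CPM in WT and rose in Apc against WT (0.86, SE 0.11, adjusted p = 8.29e-05), also among male libraries only (0.82, adjusted p = 0.00167).

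Tm7sf2, a sterol reductase, and Hsd17b7, a ketosteroid reductase, also rose in Apc against WT. Tm7sf2 averaged 31.99 ± 3.42 CPM in Apc Eif3h, 37.98 ± 0.506 CPM in Apc and 24.1 ± 3.36 CPM in WT (0.65, SE 0.11, adjusted p = 0.000389), with 12.04% of its words shared with other genes, mainly its neighbour Vps51 on the same strand. Hsd17b7 averaged 27.5 ± 3.60 CPM in Apc Eif3h, 29.6 ± 2.24 CPM in Apc and 22.6 ± 3.05 CPM in WT (0.39, SE 0.12, adjusted p = 0.0152), a call lost among male libraries only (adjusted p = 0.11). Msmo1, the methylsterol monooxygenase that works after Cyp51, did not pass (0.19, SE 0.0995, adjusted p = 0.124). Msmo1 passed among male libraries only (adjusted p = 0.0435) and with library totals only (0.00217). It was at 87.2, 88.5, 85.2 and 85.6 CPM in Apc Eif3h, 98.1, 110.4, 103 and 118 CPM in Apc and 76.2, 91.6, 101 and 108 CPM in WT, so all Apc Eif3h libraries were below all Apc libraries and WT overlapped both.

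Ebp and Sc5d ran the other way. Ebp, the X-linked sterol isomerase, was at 48.4, 53.95, 64.2 and 53.5 CPM in Apc Eif3h, 53.6, 57.9, 52.5 and 55.5 CPM in Apc and 71.3, 65.02, 83.8 and 82.6 CPM in WT. No Apc Eif3h or Apc library reached the lowest WT library, and Ebp fell in Apc against WT (-0.46, SE 0.10, adjusted p = 0.00237), also among male libraries only (-0.41, adjusted p = 0.025). Sc5d, a desaturase, was at 110.5, 106, 154 and 121 CPM in Apc Eif3h, 116, 152, 136 and 136 CPM in Apc and 158, 178, 235 and 199.9 CPM in WT. Its WT libraries were above all others, with -0.51 (SE 0.14, adjusted p = 0.0091) in Apc against WT and -0.65 (SE 0.14, adjusted p = 0.00192) in Apc Eif3h against WT. The call of Sc5d in Apc against WT was lost with library totals only (-0.28, adjusted p = 0.0565) and among male libraries only (-0.43, 0.0666). Dhcr7, the reductase that ends the pathway, did not pass in Apc against WT (0.14, SE 0.0810, adjusted p = 0.175). With library totals only it passed (0.000726), and its values are given with Apc Eif3h below. Summed over the 19 synthesis enzymes, levels were 972 to 1062 CPM in Apc Eif3h, 1020 to 1116 CPM in Apc and 808 to 1038 CPM in WT, where replicate 3 was the highest.

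In the SREBP control group, Srebf2 and Scap rose and Srebf1 and Insig2 fell in Apc against WT. Srebf2 (ENSMUSG00000022463, chromosome 15, 82147181 to 82205379, plus strand) was at 199.9, 211, 163 and 189.8 CPM in Apc Eif3h, 239, 192, 209 and 237 CPM in Apc and 135, 136, 146 and 126 CPM in WT. All mutant libraries were above all WT libraries, with 0.69 (SE 0.0982, adjusted p = 0.000144) in Apc against WT and 0.49 (SE 0.0980, adjusted p = 0.00108) in Apc Eif3h against WT. Scap, the escort of the SREBP precursors, averaged 58.05 ± 4.27 CPM in Apc Eif3h, 60.4 ± 4.43 CPM in Apc and 40.8 ± 3.81 CPM in WT and rose in Apc against WT (0.57, SE 0.0889, adjusted p = 0.000275) and in Apc Eif3h against WT (0.51, SE 0.0888, adjusted p = 0.000423). Srebf1 was at 95.99, 89.6, 118 and 104 CPM in Apc Eif3h, 91.5, 118, 99.8 and 115 CPM in Apc and 124, 139.5, 174 and 162 CPM in WT. Its WT libraries were above all others, and it fell in both comparisons, with -0.50 (SE 0.12, adjusted p = 0.00492) in Apc against WT and -0.56 (SE 0.12, adjusted p = 0.00218) in Apc Eif3h against WT. Counts over the whole gene do not separate the transcripts that give SREBP1a and SREBP1c.

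The Insig genes, whose products retain Scap in the endoplasmic reticulum, did not run alike. Insig2 was at 37.1, 31, 43.1 and 33.2 CPM in Apc Eif3h, 31.7, 33.8, 35.4 and 32.3 CPM in Apc and 48.8, 47.2, 71.9 and 54.5 CPM in WT. Its 4 WT libraries were above the other 8, and it fell in Apc against WT (-0.74, SE 0.14, adjusted p = 0.000789) and in Apc Eif3h against WT (-0.62, SE 0.14, adjusted p = 0.00189). Insig1 (ENSMUSG00000045294, chromosome 5, 28071363 to 28078662, plus strand), itself a known SREBP target, was at 34.9, 47.9, 49.6 and 49.3 CPM in Apc Eif3h, 46.6, 73.01, 60.2 and 71.1 CPM in Apc and 64.9, 64.4, 75.1 and 64.3 CPM in WT. Apc and WT overlapped (-0.097, SE 0.14, adjusted p = 0.591), while the Apc Eif3h libraries were all below WT, and Insig1 fell in Apc Eif3h against WT (-0.56, SE 0.15, adjusted p = 0.00535). For Apc Eif3h against Apc its difference was the lowest of the 26 but did not pass (-0.47, SE 0.14, adjusted p = 0.0727), and Apc replicate 1 lay among the Apc Eif3h libraries. Without Apc replicate 1 it passed (-0.58, adjusted p = 0.0279), as it did with DESeq2 (0.0354), with sex as a covariate (0.0436) and among male libraries (0.0408).

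Both genes of uptake and transport fell in Apc against WT and in Apc Eif3h against WT. Npc1l1 (ENSMUSG00000020447, chromosome 11, 6211013 to 6230143, minus strand), the transporter through which enterocytes take up dietary sterol, was at 366, 303, 896 and 564 CPM in Apc Eif3h, 508, 824, 734 and 396 CPM in Apc and 959, 1231, 1484 and 1217 CPM in WT. Every WT library was above every other, and replicates varied widely in Apc Eif3h, where replicate 3 was nearly as high as the lowest WT library. The log2 fold change was -0.99 (SE 0.32, adjusted p = 0.0204) in Apc against WT and -1.20 (SE 0.32, adjusted p = 0.00673) in Apc Eif3h against WT. The call of Npc1l1 in Apc against WT was lost without WT replicate 3 (adjusted p = 0.0532), Apc replicate 1 (0.0585) or Apc replicate 4 (0.0613), and among male libraries (0.0938). Per 1000 summed CPM of the 21 enterocyte markers, Npc1l1 was at 12.2 to 21.9 CPM in Apc Eif3h, 16.2 to 26.7 in Apc and 18.7 to 23.4 in WT, so that the groups overlapped. This ratio was chosen after its values were seen and has no test. In these bulk libraries, fewer enterocytes and less RNA per enterocyte cannot be told apart.

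**Figure D3:**
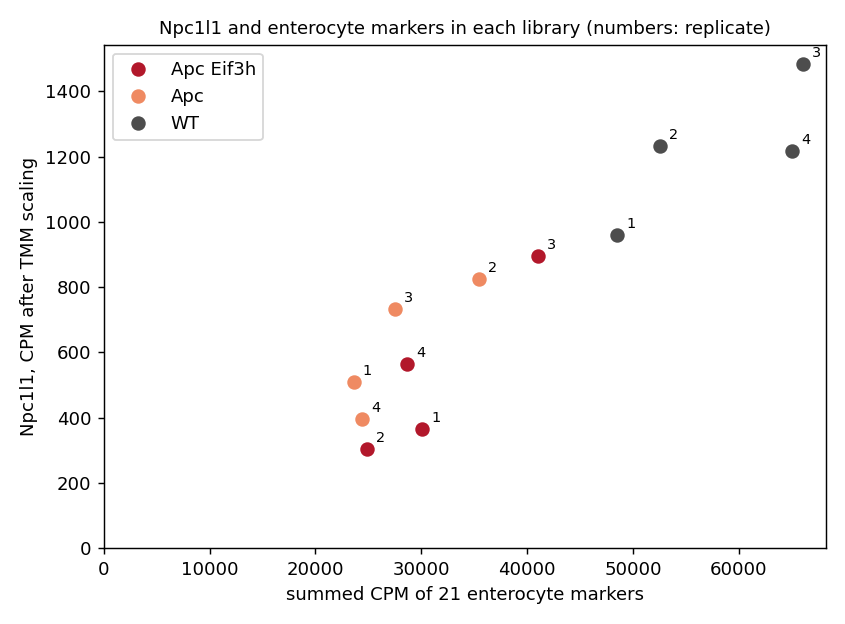
Npc1l1 in CPM against the summed CPM of 21 enterocyte markers, 1 point per library in Apc Eif3h, Apc and WT. The 4 WT points lie at 48500 to 66060 summed CPM and 959 to 1484 CPM of Npc1l1, apart from the other 8.

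Stard4, a cytosolic sterol carrier, was at 196, 157, 217 and 179 CPM in Apc Eif3h, 175, 213, 191 and 174 CPM in Apc and 194, 256, 274 and 249 CPM in WT. The groups overlapped through WT replicate 1, and Stard4 fell in Apc against WT (-0.37, SE 0.12, adjusted p = 0.0242) and in Apc Eif3h against WT (-0.38, SE 0.12, adjusted p = 0.0199). The call of Stard4 in Apc against WT was lost without any 1 of WT replicates 2, 3 and 4 or Apc replicates 1 and 4 (adjusted p of 0.0528 to 0.0701), with library totals only (-0.14, 0.287), without the filter on low counts (0.0522) and among male libraries (0.119). In Apc Eif3h against WT it was lost without WT replicate 3 (0.0594) or Apc Eif3h replicates 2 (0.057) or 4 (0.053), with library totals only (0.161) and among male libraries (0.0544). The 14 crypt and cycling markers rose and 16 of 21 enterocyte markers fell in Apc against WT, as given above. Of other cell types, 8 of 9 T cell markers (88.9%) and 6 of 10 smooth muscle markers (60%) fell, against 24.1% of all genes. The T cell markers summed to 75.0 to 122 CPM in Apc and 151 to 478 CPM in WT. The smooth muscle markers summed to 1710 to 1988 CPM in Apc and 2115 to 3290 CPM in WT, both without overlap. The part of these markers in the differences of the 26 members from WT was not tested.

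Apc Eif3h and Apc share the label of day 4, and between them 3 members fell, all from squalene to cholesterol. Fdft1 (ENSMUSG00000021273, chromosome 14, 63145150 to 63179578, minus strand), squalene synthase, was at 38.1, 35.6, 33.2 and 33.97 CPM in Apc Eif3h, 48.2, 44.6, 43.7 and 52.6 CPM in Apc and 31.1, 29.4, 33.3 and 30.1 CPM in WT. All Apc Eif3h libraries were below all Apc libraries and overlapped WT. Fdft1 fell in Apc Eif3h against Apc (-0.42, SE 0.0810, adjusted p = 0.0107), and this call held in all 21 alternatives tried. In Apc against WT it rose (0.61, SE 0.0818, adjusted p = 9.79e-05). Apc Eif3h against WT gave 0.18 (adjusted p = 0.0697), which passed without Apc Eif3h replicate 3 (0.043) or with library totals only (0.00363). Ctsb, which encodes a protease, lies on the opposite strand over 18.3% of the exon length of Fdft1. It held 123244 counts against 7234 for Fdft1, and since the strand setting of the counting is not given in the sources used here, the level of Fdft1 is uncertain.

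Lss (ENSMUSG00000033105, chromosome 10, 76531588 to 76557138, plus strand), lanosterol synthase, was at 24.7, 25.6, 20.3 and 23.5 CPM in Apc Eif3h, 32.1, 29.5, 32.6 and 28.4 CPM in Apc and 16.7, 17.9, 19.4 and 16.7 CPM in WT. The 3 groups did not overlap, with Apc Eif3h between Apc and WT. Lss fell in Apc Eif3h against Apc (-0.38, SE 0.0935, adjusted p = 0.0302) and was above WT both in Apc (0.80, SE 0.0953, adjusted p = 4.73e-05) and in Apc Eif3h (0.41, SE 0.0953, adjusted p = 0.00275). The fall against Apc lost its call without any 1 of Apc replicates 1, 2 and 3 or Apc Eif3h replicates 1, 3 and 4 (adjusted p of 0.0522 to 0.101). Dhcr7 (ENSMUSG00000058454, chromosome 7, 143823145 to 143848410, plus strand) was at 38.6, 42.8, 49.02 and 44.9 CPM in Apc Eif3h, 56.5, 56.1, 53.4 and 53.3 CPM in Apc and 49.04, 45.9, 50.99 and 53.5 CPM in WT. All Apc Eif3h libraries were below all Apc libraries, and WT overlapped both. Dhcr7 fell in Apc Eif3h against Apc (-0.32, SE 0.0809, adjusted p = 0.0337), a call lost without any 1 of the 4 Apc libraries or Apc Eif3h replicates 1, 2 and 4 (0.0627 to 0.0862). Lss and Dhcr7 also lost their calls without the filter on low counts (0.075 and 0.114), among male libraries (0.0882 and 0.0902), with the 2 groups alone (0.0627 and 0.0573) and with the replicate block (0.0596 and 0.0549), and Dhcr7 with sex as a covariate (0.0609). All 4 Apc Eif3h libraries are male and 1 of the 4 Apc libraries is female. Beside these, 2 of 14 crypt and cycling markers fell in Apc Eif3h against Apc (14.3%), as did 1 of 10 fibroblast markers (10%), against 2.78% of all genes. Lgr5 had the lowest log2 fold change of the 14 (-1.19, adjusted p = 0.00974), and their median was -0.23. The highest was 0.25, and 2 were positive. Ascl2 averaged 42.9 CPM in Apc Eif3h and 36 CPM in Apc, and Axin2 401 and 358 CPM. The fibroblast markers summed to 642 to 838 CPM in Apc Eif3h and 857 to 1398 CPM in Apc, without overlap. At an unadjusted p below 0.05, 7 of the 10 were lower, beside 1905 of all 17394 genes. The part of these markers in these differences was not tested.

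Sqle and Cyp51, which act next to these enzymes, had positive differences that did not pass. The log2 fold change of Sqle in Apc Eif3h against Apc was 0.22 (SE 0.15, adjusted p = 0.421) and that of Cyp51 0.37 (SE 0.14, adjusted p = 0.139), and both overlapped. Cyp51 passed without Apc Eif3h replicate 3 (0.49, adjusted p = 0.0402). Taken per kilobase of exon, the level of Cyp51 over that of Lss, its predecessor in the pathway, was 13.6 to 18.0 in the Apc Eif3h libraries, 7.37 to 10.8 in Apc and 7.30 to 9.43 in WT. All Apc Eif3h libraries were above all others in this ratio. The level of Sqle over that of Fdft1, per kilobase, was 1.66 to 2.66 in Apc Eif3h, 1.25 to 1.49 in Apc and 0.948 to 1.10 in WT, without overlap between groups. Both ratios were chosen after their values were seen and have no test. Msmo1 (-0.31, adjusted p = 0.0808) and Tm7sf2 (-0.25, adjusted p = 0.182) had Apc Eif3h libraries below all Apc libraries without passing. Msmo1 passed without WT replicate 1 (0.038), which enters the shared estimate of the spread, and when WT was left out of the fit (0.0487), where Lss and Dhcr7 did not pass. The remaining members' adjusted p in this comparison ran up to 0.99.

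**Figure D4:**
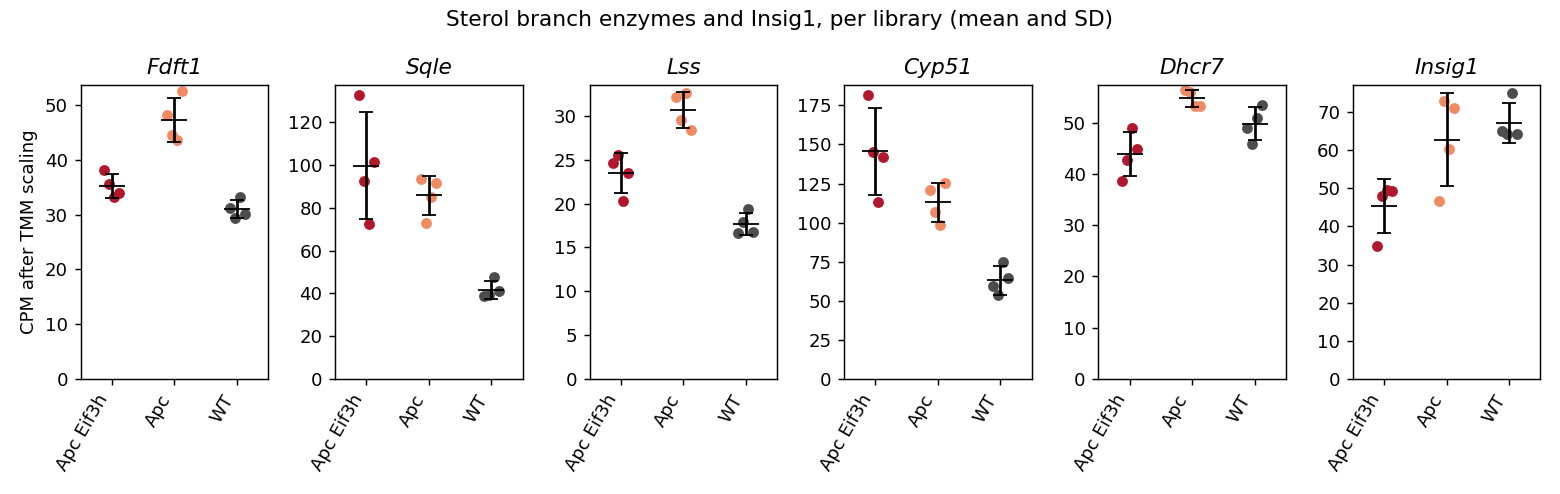
CPM of Fdft1, Sqle, Lss, Cyp51, Dhcr7 and Insig1 in each library of Apc Eif3h, Apc and WT, with the mean and SD of 4 libraries. Fdft1, Lss and Dhcr7 are lower in Apc Eif3h than in Apc without overlap, whereas Sqle and Cyp51 overlap between these groups.

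By role, Apc Eif3h against WT had 5 of 8 mevalonate enzymes higher (62.5%), and 5 of 11 later enzymes higher (45.5%) and 2 lower (18.2%). Of 5 SREBP control genes, 2 were higher (40%) and 3 lower (60%), and both genes of uptake and transport were lower. Over all genes tested, 29.8% were higher and 28.1% lower. Fdps (0.74, adjusted p = 0.000139), Nsdhl (0.57, adjusted p = 0.00107), Acat2 (0.54, adjusted p = 0.0107) and Tm7sf2 (0.40, adjusted p = 0.00661) rose, and Ebp fell (-0.46, adjusted p = 0.00205). Mvk rose (0.42, adjusted p = 0.0227), a call lost without WT replicate 1 or 2 or Apc Eif3h replicate 1 or 2 (0.0554 to 0.065) and among male libraries (0.0514). Hsd17b7 (0.29, adjusted p = 0.0535), Dhcr7 (-0.18, adjusted p = 0.0675) and Ggps1 (-0.17, adjusted p = 0.0849) did not pass. Hsd17b7 passed without WT replicate 3 (0.0175) or Apc Eif3h replicate 3 (0.0157) and with library totals only (0.00631), Dhcr7 without WT replicate 2 (0.0462) or Apc Eif3h replicate 3 (0.0309), and Ggps1 without WT replicate 4 (0.0308) and among male libraries (0.0401). Msmo1 (-0.12, adjusted p = 0.323), Hmgcs1 (0.035, adjusted p = 0.797) and Mvd (0.028, adjusted p = 0.879) did not pass either here or in any of the 21 alternatives.

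Compared per kilobase of exon, the order of the members' levels shifted with group. Npc1l1 had the highest level in each group, at 119 CPM per kilobase in Apc Eif3h, 138 in Apc and 274 in WT. Stard4, Cyp51 and Hmgcs1 followed in Apc Eif3h at 33.5, 32.98 and 32.7 CPM per kilobase, and Hmgcs1, Stard4 and Srebf2 in Apc at 34.5, 33.7 and 30.5. In WT they were Stard4, Sc5d and Ebp, at 43.6, 39.6 and 32.8 CPM per kilobase. Among the 26, Cyp51 had rank 3 in Apc Eif3h, rank 6 in Apc and rank 11 in WT. Fdps, Idi1 and Lss were the lowest in each group, at 2.18 to 3.46 CPM per kilobase in Apc Eif3h, 2.84 to 3.82 in Apc and 1.51 to 2.07 in WT. The words that Fdps and Idi1 share with other genes make their levels uncertain. The level of Lss is divided by 10787 bases of exon, the longest of the 26, so its rank depends on the annotation.

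Within groups, the members' median coefficient of variation was 11.9% in Apc Eif3h, 9.93% in Apc and 13.4% in WT, beside 16%, 12.3% and 15.03% over all genes tested. WT replicate 3 was the highest of its group in 18 of the 26 members and the lowest in 0, and Apc Eif3h replicate 3 was the highest of its group in 11 and the lowest in 10. In that Apc Eif3h library the 11 highest were Acat2, Ggps1, Tm7sf2, Dhcr7, Ebp, Sc5d, Srebf1, Insig1, Insig2, Stard4 and Npc1l1. The 10 lowest were Pmvk, Fdft1, Sqle, Lss, Cyp51, Msmo1, Nsdhl, Hsd17b7, Srebf2 and Scap. Its enterocyte markers summed to 41010 CPM, against 24840 to 30080 CPM in the others of the group. The part of that difference in the members' spread was not tested. Without WT replicate 3, Apc against WT gave 15 members higher and 4 lower and a median of 0.45.

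Of the genes around the pathway, those listed for SREBP1 and fatty acid synthesis held 3 of 17 tested that fell (17.6%, against 2.78% of all genes) and 1 that rose (5.88%, against 4.27%) in Apc Eif3h against Apc. Fads1, the delta-5 fatty acid desaturase, was at 47.9, 50.9, 58.8 and 50.5 CPM in Apc Eif3h, 94.04, 82.9, 79.9 and 98.6 CPM in Apc and 55.7, 47.4, 40.7 and 43.7 CPM in WT. All Apc Eif3h libraries were below all Apc libraries and overlapped WT, with -0.77 (SE 0.11, adjusted p = 0.00302) in Apc Eif3h against Apc and 0.92 (SE 0.11, adjusted p = 4.41e-05) in Apc against WT. Fads2, the delta-6 desaturase, was at 117, 85.3, 127 and 98.5 CPM in Apc Eif3h, 175, 146, 167 and 162 CPM in Apc and 103, 99.3, 95.4 and 82.5 CPM in WT. Its Apc Eif3h libraries were again below all Apc libraries and overlapped WT, with -0.60 (SE 0.12, adjusted p = 0.012) in Apc Eif3h against Apc. Acss2, which makes acetyl-CoA from acetate and lies outside the rule for named genes, averaged 34.6 ± 3.796 CPM in Apc Eif3h, 47.01 ± 3.32 CPM in Apc and 39.3 ± 3.99 CPM in WT and fell in Apc Eif3h against Apc (-0.44, SE 0.0985, adjusted p = 0.0211). The call of Acss2 was lost without Apc replicate 3 (0.0781) or Apc Eif3h replicates 1 (0.061) or 2 (0.0607), without the filter on low counts (0.0536) and among male libraries (0.0525). Mid1ip1, a partner of acetyl-CoA carboxylase, rose (0.62, SE 0.0957, adjusted p = 0.00459), at 64.7, 74.7, 64.7 and 72.9 CPM in Apc Eif3h, 40.6, 42.3, 44.2 and 52.8 CPM in Apc and 43.6, 39.4, 44.1 and 37.7 CPM in WT. Its Apc Eif3h libraries were above all the others. In Apc against WT 9 of the 17 rose (52.9%, against 27.7% of all genes) and 3 fell (17.6%, against 24.1%). With library totals only or among male libraries 1 fell, where 2393 of 17394 and 2892 of 17823 genes fell. Those that rose included Elovl5, a fatty acid elongase (0.77, adjusted p = 2.0e-05), and the desaturase Scd2 (1.69, adjusted p = 2.22e-05).

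**Figure D5:**
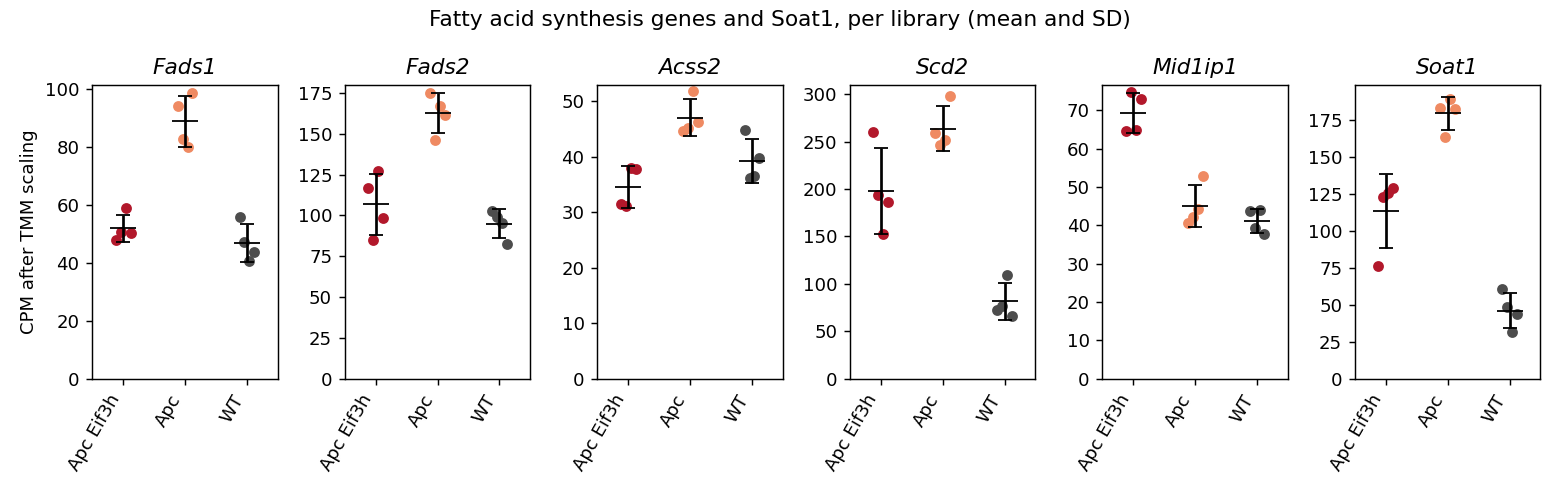
CPM of Fads1, Fads2, Acss2, Scd2, Mid1ip1 and Soat1 in each library of Apc Eif3h, Apc and WT, with the mean and SD of 4 libraries. Fads1 and Fads2 are lower in Apc Eif3h than in Apc without overlap, and Mid1ip1 is higher.

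Genes that use isoprenoids rose in 9 of 17 in Apc against WT (52.9%, against 27.7% of all genes), and 10 rose in Apc Eif3h against WT (58.8%, against 29.8%). The 9 were 5 among male libraries and ran from 5 to 12 over the alternatives. Trit1, which prenylates transfer RNA, rose by 1.33 on the log2 scale (adjusted p = 1.02e-05) and Coq2, of ubiquinone synthesis, by 0.46 (0.000349) in Apc against WT. In Apc Eif3h against Apc, Rabggtb, a subunit of the geranylgeranyl transferase of Rab proteins, rose (0.37, SE 0.0883, adjusted p = 0.029) and Trit1 fell (-0.41, SE 0.11, adjusted p = 0.0469). The calls of Rabggtb and Trit1 against Apc were lost in 11 and 13 of 21 alternatives, with adjusted p up to 0.0965 and 0.122. For both these include leaving out Apc replicate 2 or 3 or Apc Eif3h replicate 1, 2 or 4, for Rabggtb also Apc replicate 4, and for Trit1 also Apc replicate 1 or WT replicate 2 or 3.

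Genes that process SREBPs or degrade proteins in response to sterol fell in 9 of 16 (56.2%, against 24.1% of all genes) and rose in 2 (12.5%, against 27.7%) in Apc against WT. With library totals only 5 fell and 5 rose, beside 2393 and 6817 of all 17394 genes. Pgrmc1, a membrane haem protein, gave -0.95 (adjusted p = 0.00027), the lipid raft protein Erlin1 -0.97 (adjusted p = 0.000499) and Sec23a, of the vesicle coat that carries Scap, -0.78 (adjusted p = 0.000548). Mbtps1, the site-1 protease that makes the first cut in SREBP precursors, was the 1 of 16 that fell in Apc Eif3h against Apc (-0.34, SE 0.0909, adjusted p = 0.0434), a call lost in 15 of 21 alternatives, among them leaving out any 1 library other than WT replicate 3 and Apc Eif3h replicate 3. Mbtps2, the site-2 protease, rose in Apc Eif3h against WT (0.91, adjusted p = 0.000259). It also rose in Apc against WT, by 0.64 to 0.97 over the 21 alternatives with adjusted p up to 0.0156. Its mean was 25.7 CPM in Apc Eif3h, 22.8 CPM in Apc and 13.7 CPM in WT.

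Storage and transport genes fell in 9 of 18 (50%, against 24.1% of all genes) and rose in 3 (16.7%, against 27.7%) in Apc against WT. With library totals only 5 fell, beside 2393 of all 17394 genes. Soat1, which esterifies cholesterol for storage, was at 76.5, 123, 126 and 129 CPM in Apc Eif3h, 183, 164, 189 and 182 CPM in Apc and 60.9, 48.6, 31.7 and 43.6 CPM in WT. The 3 groups did not overlap, with 1.96 (SE 0.19, adjusted p = 1.75e-05) in Apc against WT and 1.30 (SE 0.19, adjusted p = 0.000125) in Apc Eif3h against WT, while Apc Eif3h against Apc did not pass (-0.66, SE 0.19, adjusted p = 0.0528), although it did with DESeq2 (0.00905), with RLE size factors (0.0458), with the 2 groups alone (0.0419) and without WT replicate 1 (0.0388) or 3 (0.0316). Tmem97, a sterol-responsive membrane protein, rose in Apc against WT (0.70, adjusted p = 7.8e-05). Cav1, the coat protein of caveolae, fell (-0.84, adjusted p = 2.08e-05). For Apc Eif3h against Apc, edgeR called 0 of 18 in either direction. At an unadjusted p below 0.05 it gave 0 higher and 4 lower, beside 2190 and 1905 of all 17394 genes. DESeq2 called 0 higher and 1 lower, beside 1059 and 696 of 34982 genes.

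Genes of LXR, the oxysterol receptor, and of sterol efflux fell in 5 of 12 in Apc against WT (41.7%, against 24.1% of all genes). In that comparison 1 rose (8.33%, against 27.7%). In Apc Eif3h against WT, 8 fell (66.7%, against 28.1%) and 1 rose (8.33%, against 29.8%). With library totals only 3 fell in Apc against WT, beside 2393 of all 17394 genes. The receptor genes Nr1h3 (-0.68, adjusted p = 0.00111) and Nr1h2 (-0.42, adjusted p = 0.00181) fell in Apc against WT, and Ch25h, which makes an oxysterol, rose (2.27, adjusted p = 7.66e-05). The level of Ch25h was low, with a mean of 3.77 CPM in Apc and 0.756 CPM in WT. Abcg5, a partner in the transporter that returns sterol to the gut lumen and outside the rule for named genes, was at 161, 159, 457 and 242 CPM in Apc Eif3h, 198, 312, 297 and 184 CPM in Apc and 606, 660.5, 697 and 734 CPM in WT. Its WT libraries were above all others (-1.44, adjusted p = 0.00186 in Apc against WT), as was the sum of enterocyte markers, whose part was not tested. Neither way did edgeR or DESeq2 call any gene of this list in Apc Eif3h against Apc (0 of 12). At an unadjusted p below 0.05, 3 were lower and 0 higher, beside 1905 and 2190 of all 17394 genes.

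Of 8 other genes of sterol synthesis and its redox partners, 2 rose (25%, against 27.7% of all genes) and 3 fell (37.5%, against 24.1%) in Apc against WT. Among male libraries 1 fell. Lbr, which joins a nuclear envelope domain to a sterol reductase like that of Tm7sf2, averaged 92.6 ± 15.5 CPM in Apc Eif3h, 90 ± 7.61 CPM in Apc and 40.7 ± 8.46 CPM in WT and rose in Apc against WT (1.14, SE 0.15, adjusted p = 9.17e-05). Cyb5r3, the reductase of cytochrome b5, which passes electrons to Sc5d, averaged 338 ± 116 CPM in Apc Eif3h, 339 ± 54.2 CPM in Apc and 808 ± 118 CPM in WT and fell (-1.25, SE 0.22, adjusted p = 0.000505). In Apc Eif3h against Apc, edgeR and DESeq2 called 0 of 8 in either direction. At an unadjusted p below 0.05, 1 was lower, beside 1905 of all 17394 genes.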

How the data were processed

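Gene-level counts for 12 libraries of mouse small intestine were used as deposited. They are whole-number counts per gene, not normalized, per the file headers and the values. RNA was isolated with RNeasy Micro and sequenced as TruSeq RNA libraries in pairs of 36 bases, per the labels' protocols. Named without roles in the submitters' processing notes are HISAT2 2.1.0, featureCounts 1.6.4, FastQC 0.11.8, Trim Galore 0.6.4 and the build GRCm38. How strand and multiply mapped reads were handled, and the annotation release, are not given in the sources, so near-identical copies and overlapping genes can share or lose reads.

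Symbols and coordinates came from GENCODE M21 (GRCm38). It matched 55154 of 55421 identifiers, and the other 267 held 0.00226% of counts. The test was edgeR 4.0.16 under R 4.3.3 (filterByExpr, TMM, glmQLFit and glmQLFTest with 1 mean per group over 12 libraries), with Benjamini-Hochberg adjustment over the 17394 genes tested and calls at an adjusted p below 0.05. The procedure was tested on simulated data. Levels are CPM after TMM scaling, and a fold change is the fitted log2 ratio. Standard errors are the absolute log2 fold change over the square root of the F statistic. Per-kilobase levels divide by the union of exons. Replicate pairs within groups differed by a chi-square of 16.5 to 47.8 per gene over 18 pairs, so none was counted as 1 library. Alternatives were other scalings, DESeq2 1.42.0, filters, sex, the replicate block, the 2 groups alone and each library left out. The members, lists and tests were chosen with earlier results of these data known. Named genes were the 26 members, Eif3h and Apc, up to 3 called genes per list and comparison with the smallest p, and markers. Acss2 and Abcg5 were added after their values were seen.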

Additional observations from a re-analysis of the deposited data

Results flagged for a closer look

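In 3 of the 78 sets of 4 libraries (26 members in 3 groups), 1 library lay far from the other 3, where chance gives about 1 in 20. Scap was at 51.7 CPM in Apc Eif3h replicate 3, and the nearest other library of that group was at 59.5 CPM. Insig1 was at 34.9 CPM in Apc Eif3h replicate 1, against 47.9 CPM in the nearest of its group. Insig1 was also at 75.1 CPM in WT replicate 3, against 64.9 CPM in the nearest WT library. The call of Scap in either comparison with WT held in each of the 21 alternatives, as did that of Insig1 in Apc Eif3h against WT.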

How the results depend on the processing

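Over the 26 members and 3 comparisons, 1564 of 1638 recomputed fold changes kept their side of the threshold. Of the others, 48 lost the call, 26 gained one and 0 changed direction with a call. Some fold changes near 0 that were called in neither setting did change direction and are among the 1564. Insig1 in Apc against WT, for example, ran from -0.18 to 0.14. With library totals only, the members' median was 0.58 in Apc against WT and 0.44 in Apc Eif3h against WT, where the median of all genes moved as well. Members lower in Apc Eif3h against Apc numbered 1 without the filter on low counts, which adds genes to the adjustment, and members lower in Apc against WT numbered 3 in male libraries only, which leaves fewer samples. Leaving out 1 library at a time gave, for Apc Eif3h against Apc, 0 to 1 higher, 1 to 4 lower and a median of -0.19 to -0.15. The 1 that was then higher was Cyp51 without Apc Eif3h replicate 3. It gave 13 to 15 higher, 4 to 6 lower and 0.31 to 0.45 for Apc against WT, and 10 to 14 higher, 6 to 8 lower and 0.21 to 0.30 for Apc Eif3h against WT. Replicate numbers were not shown to pair libraries (correlations of -0.14 to 0.24 over 12 pairs of libraries with 1 number, above 0.1 in 3). The library with the same number was the best match in 5 of 24 checks. With replicate number as a block, 2 members were lower in Apc Eif3h against Apc (Fdft1 and Insig1, median -0.19), and Apc against WT had 13 higher and 6 lower (median 0.35). Start regions cut to the 200 bases next to the end of the window held CCAAT in 63.3% of member windows and 28.6% of all, and CACCCCAC in 3.33% and 1.97%. The member with the fewest counts, Idi1, had 56 in its lowest library, and counting error is largest there.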
